A study of Mus musculus with 12 samples.

Results

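The 10 genes described here, Ihh, Nr2f2, Hand2, Hoxa10, Hoxa11, Acod1, Bmp2, Msx1, Gata2 and Foxo1, belong to the programme by which ovarian steroids, above all progesterone, prepare the mouse uterus for embryo implantation. Each was taken as the array row that carries its symbol and no other. All 10 were found, each on 1 row, among 21789 transcript clusters with exactly 1 symbol and 35556 clusters in all. Expression in endometrium was read on 12 arrays of the Affymetrix Mouse Gene 1.0 ST type, whose probes for a gene lie along the whole transcript. All females were CBAF1 mice, the F1 cross of CBA and C57Bl/6. In the study, females were 9 to 16 weeks and males 12 to 28 weeks of age. The unmated control group were virgin females labelled estrus. The intact-mated group had mated 8 h earlier with BALB/c males left intact, whose complete seminal fluid contains sperm. The vasectomized-mated group had mated 8 h earlier with BALB/c males that had been vasectomized and so deliver seminal plasma without sperm. By the study, such an ejaculate also lacks secretions of testis, epididymis and vas deferens. Between the mated groups, sperm and these secretions cannot be told apart. In each group RNA of 16 females was pooled into 4 arrays, so the spread between arrays is a spread between pools. By the study's methods the unmated females were killed during the evening of pro-estrus, so in comparisons with controls the effect of mating, the hour of collection and the stage of the cycle cannot be told apart.

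In early pregnancy the progesterone receptor acts in the uterine epithelium to induce Indian hedgehog (Ihh), a secreted ligand that signals to the stroma beneath. The stroma answers with COUP-TFII, the nuclear receptor encoded by Nr2f2, which lies upstream of the ligand Bmp2 and of the transcription factor Hand2. Hand2 restrains fibroblast growth factors that would otherwise keep the epithelium dividing, and Hoxa10 and Hoxa11 are homeobox genes of the stroma that implantation requires. Msx1 is a homeobox gene of the receptive epithelium, Gata2 encodes a partner of the progesterone receptor, and Foxo1 encodes a forkhead factor known for its part in decidualization and epithelial receptivity. Acod1, also called Irg1, encodes the enzyme that makes itaconate from cis-aconitate. It is known both as a progesterone-induced gene of the uterine epithelium and as a gene of activated macrophages and neutrophils.

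Promoters were taken from RefSeq on GRCm38.p6, which gave 11 start windows for 9 of the 10 genes, all but Bmp2. The 250 bases upstream of the start are printed for Acod1, Hand2, Hoxa10 and Hoxa11, 5′ to 3′ on the strand of the gene. Acod1 differed between intact-mated females and controls. Hand2, Hoxa10 and Hoxa11 are stromal factors that were highest on control arrays 1 and 2. Acod1 lies at chr14:103046762-103047011 on the plus strand, Hand2 at chr8:57320733-57320982 on the plus strand, Hoxa10, shown by the first of its windows, at chr6:52240855-52241104 and Hoxa11 at chr6:52245811-52246060, both on the minus strand. Capitals mark matches to 1 of 5 motifs that were searched on both strands.
Acod1: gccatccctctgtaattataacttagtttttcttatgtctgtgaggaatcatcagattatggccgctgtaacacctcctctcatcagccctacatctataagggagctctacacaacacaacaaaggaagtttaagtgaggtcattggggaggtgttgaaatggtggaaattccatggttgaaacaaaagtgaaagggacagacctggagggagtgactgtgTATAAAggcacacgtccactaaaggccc
Hand2: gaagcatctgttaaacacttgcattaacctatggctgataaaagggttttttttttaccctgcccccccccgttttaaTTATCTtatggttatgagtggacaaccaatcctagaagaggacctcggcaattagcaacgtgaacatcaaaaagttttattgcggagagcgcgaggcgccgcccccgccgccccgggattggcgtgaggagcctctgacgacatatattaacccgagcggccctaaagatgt
Hoxa10: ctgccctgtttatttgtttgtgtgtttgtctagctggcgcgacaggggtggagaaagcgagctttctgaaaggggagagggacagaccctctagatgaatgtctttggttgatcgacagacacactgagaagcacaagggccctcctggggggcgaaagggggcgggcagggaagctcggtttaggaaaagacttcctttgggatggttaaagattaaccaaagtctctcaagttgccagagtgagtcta
Hoxa11: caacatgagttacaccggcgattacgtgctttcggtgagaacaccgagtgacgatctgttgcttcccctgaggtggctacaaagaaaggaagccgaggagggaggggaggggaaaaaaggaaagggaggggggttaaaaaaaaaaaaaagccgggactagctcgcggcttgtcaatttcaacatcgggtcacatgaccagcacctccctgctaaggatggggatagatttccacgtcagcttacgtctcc

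The capitals in the Acod1 promoter are TATAAA, the letters of a TATA box, at bases -28 to -23 from the start. This motif was added after the sequences were seen, and 13.6% of 32851 mouse promoter windows of the same length hold it. The capitals in the Hand2 promoter are a GATA motif, AGATAA read on the opposite strand, at bases -172 to -167. AGATAA is held by 11.2% of the windows. The core of a progesterone or glucocorticoid response element, ACANNNTGT (6.85% of windows), and the forkhead motif TGTTTAC (3.65% of windows) matched none of the 11 windows of these genes. A motif modelled on NF-κB sites (5.56% of windows) matched 1 window of Gata2, and TATAAA also matched the second window of Hoxa10. None of the searched motifs overlap in these windows, and a match or its lack describes these letters only.

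The control arrays did not form an even group for these genes. On the second principal component of all clusters, which held 17.4% of the variance, control arrays 1 and 2 scored 11.02 and 16.68, while control arrays 3 and 4 scored -31.30 and -22.00. In 7 of the 10 genes control arrays 1 and 2 both lay above control arrays 3 and 4, as did 20.2% of all single-symbol clusters. In 1 gene, Foxo1, both lay below, as did 30% of single-symbol clusters. The mean log2 signal of a list of 8 stromal markers was 10.80 and 10.69 on control arrays 1 and 2, 9.87 and 9.86 on control arrays 3 and 4, 9.72 to 10.47 in the vasectomized-mated group and 9.28 to 10.12 in the intact-mated group. A list of 8 blood endothelial markers averaged 8.36, 8.31, 7.46 and 7.38 on control arrays 1 to 4, and a list of 9 macrophage markers 8.99, 8.98, 8.34 and 8.13. Values are therefore given per array, and for the 10 genes the comparisons with controls are also given with control arrays 1 and 2 only and with control arrays 3 and 4 only where the call changes.

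Differences are log2 fold-changes between group means from limma, with Benjamini-Hochberg adjustment over all clusters, and a gene was called when it changed 1.5-fold or more with an adjusted p no higher than 0.05. Of the 10 genes, 1 was higher, 1 was lower and 8 were not called in intact-mated females against unmated controls. Across all single-symbol clusters the percentage called was 4.79 in either direction, 2.71 higher and 2.08 lower. In vasectomized-mated females against controls 0 of 10 were called, against 1.79% of single-symbol clusters. In the direct comparison of intact-mated with vasectomized-mated females 0 of 10 were called, against 0.858%. At an unadjusted p under 0.05 from limma, 6, 3 and 1 of the 10 genes passed in these comparisons, against 27.5%, 19.7% and 17.6% of single-symbol clusters. The median log2 fold-change of the 10 genes was -0.18, -0.19 and -0.04, beside 0.01, 0.01 and -0.00 over all clusters. Comparisons with controls share the same 4 control arrays.

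**Figure D1:**
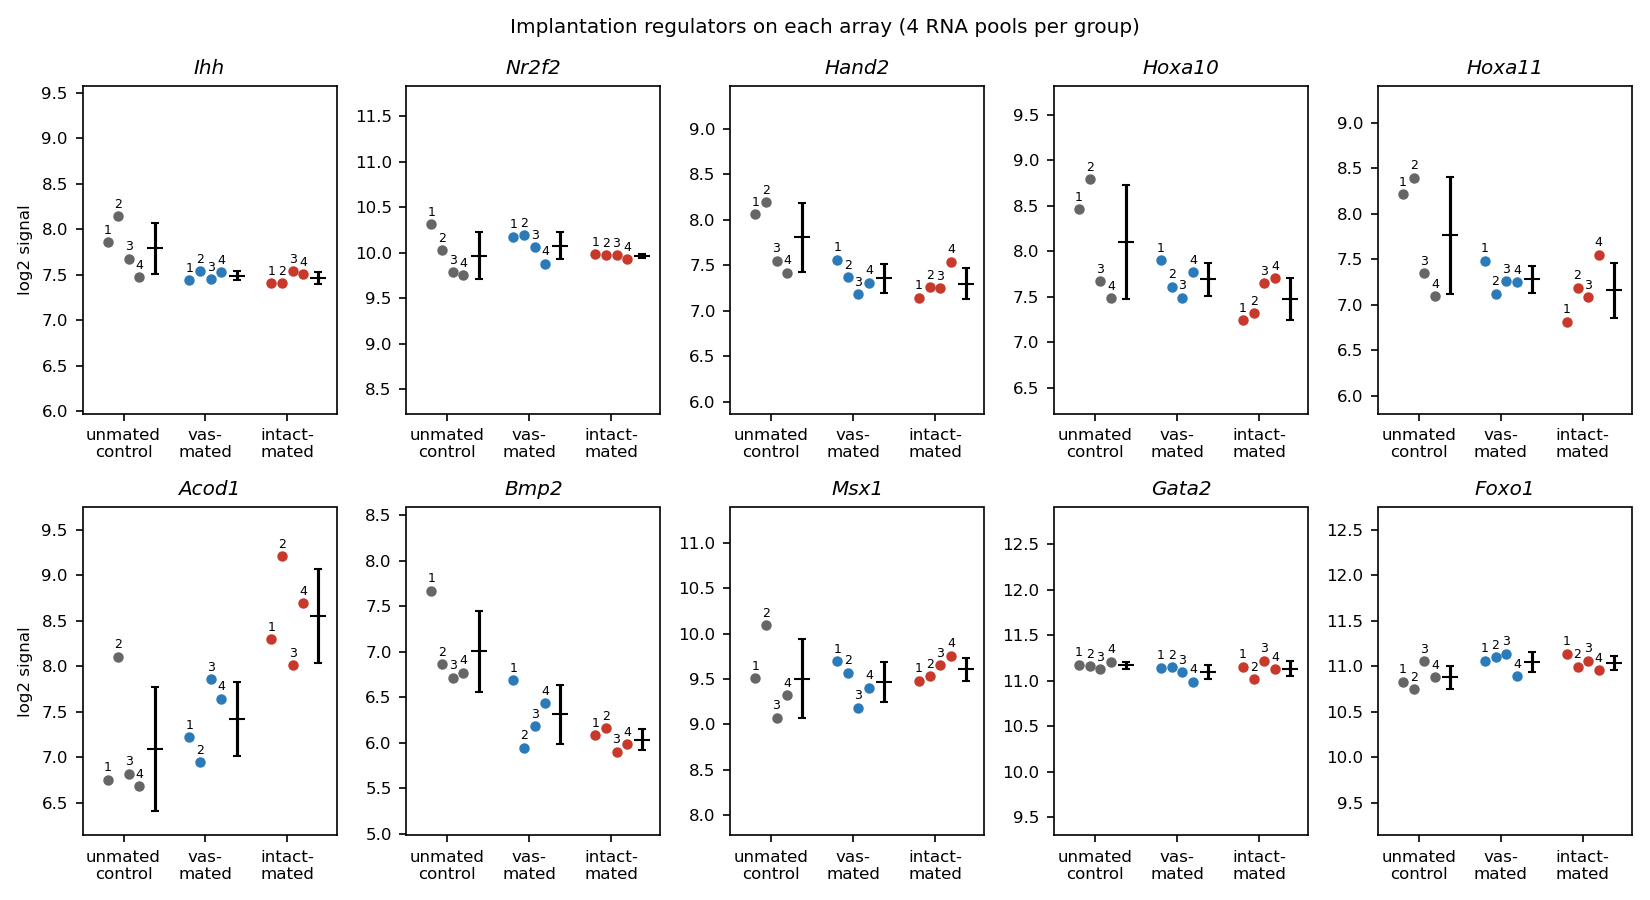
Log2 signal (vertical axis, spanning the same range of log2 units in every panel) of each gene on each array, with the 4 arrays of each group numbered, for unmated controls (grey), vasectomized-mated (blue) and intact-mated females (red). Black bars are the group mean and SD (n = 4 arrays). Acod1 lies between 8.01 and 9.21 on intact-mated arrays, and Bmp2 lies between 5.90 and 6.16 there. Ihh, Hand2, Hoxa10, Hoxa11 and Bmp2 are highest on control arrays 1 and 2.

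Among the secreted ligands, Bmp2 was lower after mating with intact males. Bmp2, a bone morphogenetic protein that the stroma needs in order to decidualize, had log2 signals of 7.67, 6.87, 6.72 and 6.77 on control arrays 1 to 4. Its signals were 6.69, 5.95, 6.18 and 6.44 on vasectomized-mated arrays and 6.09, 6.16, 5.90 and 5.98 on intact-mated arrays. Every control array lay above every array of either mated group, and control array 1 stood above the others. Bmp2 is 1 of the 10 genes without overlap between intact-mated and control arrays in the lower direction, against 7.85% of single-symbol clusters, and 1 of 10 between vasectomized-mated and control arrays, against 4.68%. Its mean fell from 7.01 ± 0.45 (SD, n = 4) in controls to 6.03 ± 0.11 (SD, n = 4) after mating with intact males, a log2 fold-change of -0.97 (SE 0.20, 95% interval -1.41 to -0.53, adjusted p = 0.00885), or 1.96-fold lower.

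After mating with vasectomized males Bmp2 averaged 6.31 ± 0.32 (SD, n = 4), a log2 fold-change of -0.69 from controls that was not called (95% interval -1.13 to -0.26, adjusted p = 0.0816). With control arrays 1 and 2 only this difference was -0.96 and called (adjusted p = 0.0491). The mated groups overlapped and differed by -0.28, with a 95% interval of -0.72 to 0.16 (adjusted p = 0.525). Without control array 1 the difference between intact-mated females and controls was -0.75 (adjusted p = 0.00798), and with control arrays 3 and 4 only it was -0.71 (adjusted p = 0.0244), both called. Bmp2 had the only row of the 10 with a mean below that of the median cluster, at 6.45 against 7.28, the lowest of the 10 row means.

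Ihh, the epithelial hedgehog ligand, was not called in any comparison. Its log2 signals were 7.86, 8.15, 7.68 and 7.47 on control arrays, 7.44, 7.54, 7.46 and 7.53 on vasectomized-mated arrays and 7.41, 7.40, 7.54 and 7.51 on intact-mated arrays. Control arrays 1, 2 and 3 lay above all 8 arrays of mated females, and control array 4 lay among them. The group means were 7.79 ± 0.28 in controls, 7.49 ± 0.05 in vasectomized-mated and 7.46 ± 0.07 in intact-mated females (SD, n = 4 each). The log2 fold-change from controls was -0.33 in the intact-mated group (95% interval -0.57 to -0.08, adjusted p = 0.0971) and -0.30 in the vasectomized-mated group (95% interval -0.55 to -0.05, adjusted p = 0.178). The mated groups differed by -0.03, with a 95% interval of -0.27 to 0.22. With control arrays 1 and 2 only the adjusted p for intact-mated females was 0.00414, but the log2 fold-change of -0.54 stayed under the fold threshold.

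Hand2, Hoxa10 and Hoxa11, the stromal transcription factors, shared a pattern in which control arrays 1 and 2 were the highest of the 12. The ligands Ihh and Bmp2 were also highest on these 2 arrays, so the pattern was not particular to the stromal factors. Hand2, a basic helix-loop-helix factor, had log2 signals of 8.06, 8.20, 7.55 and 7.42 on control arrays, 7.56, 7.37, 7.18 and 7.31 on vasectomized-mated arrays and 7.15, 7.26, 7.25 and 7.54 on intact-mated arrays. Hoxa10 had 8.46, 8.79, 7.67 and 7.49 on control arrays, 7.90, 7.61, 7.49 and 7.77 on vasectomized-mated arrays and 7.24, 7.32, 7.64 and 7.70 on intact-mated arrays. Hoxa11 had 8.22, 8.40, 7.35 and 7.10 on control arrays, 7.49, 7.12, 7.26 and 7.25 on vasectomized-mated arrays and 6.82, 7.19, 7.08 and 7.55 on intact-mated arrays. In each of the 3 genes control arrays 3 and 4 lay within the range of the arrays of mated females, so the groups overlapped.

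Hand2 averaged 7.81 ± 0.38 in controls, 7.36 ± 0.16 in vasectomized-mated and 7.30 ± 0.17 in intact-mated females (SD, n = 4 each). Its difference between intact-mated females and controls was -0.51 (SE 0.16, 95% interval -0.86 to -0.15, adjusted p = 0.0705). Hoxa10 averaged 8.10 ± 0.62, 7.69 ± 0.18 and 7.48 ± 0.23 in the same order, and differed by -0.62 between intact-mated females and controls (SE 0.25, 95% interval -1.16 to -0.09, adjusted p = 0.143). Hoxa11 averaged 7.77 ± 0.64, 7.28 ± 0.15 and 7.16 ± 0.30, and differed by -0.60 (SE 0.26, 95% interval -1.16 to -0.04, adjusted p = 0.180). None of these differences was called, although those of Hoxa10 and Hoxa11 exceeded the fold threshold. Between vasectomized-mated females and controls the log2 fold-changes were -0.45, -0.41 and -0.48 for Hand2, Hoxa10 and Hoxa11 (adjusted p = 0.156, 0.409 and 0.345). Between the mated groups they were -0.06, -0.21 and -0.12, with 95% intervals of -0.41 to 0.30, -0.75 to 0.32 and -0.68 to 0.44.

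The choice of control arrays changed these calls. Without control array 4, Hand2, Hoxa10 and Hoxa11 were called lower in intact-mated females, at -0.64, -0.83 and -0.83 (adjusted p = 0.0249, 0.0437 and 0.0498). With control arrays 1 and 2 only they were called lower in intact-mated females at -0.83, -1.15 and -1.15 (adjusted p = 0.00263, 0.00185 and 0.00263). They were also called lower in vasectomized-mated females then, at -0.77, -0.93 and -1.03 (adjusted p = 0.0106, 0.0139 and 0.0124). With control arrays 3 and 4 only the differences for intact-mated females were -0.19, -0.10 and -0.06, and those for vasectomized-mated females were -0.13, 0.11 and 0.06, none called. The stromal, endothelial and macrophage lists were high on the same control arrays 1 and 2, and their part in the pattern of Hand2, Hoxa10 and Hoxa11 was not tested. Within the stromal list 2 of 8 markers, Col1a1 and Lum, were lower in intact-mated females than in controls, and 0 of 8 were called in the other comparisons. Calls of marker genes were not repeated with other sets of control arrays. No stromal marker had a mean below the median cluster. In bulk RNA, fewer stromal cells and less RNA per stromal cell cannot be told apart. RefSeq lists antisense transcripts beside Hand2 and Hoxa11, Hand2os1 and Hoxa11os, which were not analysed here.

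Nr2f2, which encodes COUP-TFII of the stroma, was not called in any comparison. Its log2 signals were 10.31, 10.03, 9.79 and 9.76 on control arrays, 10.18, 10.20, 10.07 and 9.88 on vasectomized-mated arrays and 9.99, 9.97, 9.98 and 9.93 on intact-mated arrays. All 8 arrays of mated females lay within the range of the control arrays. The intact-mated mean of 9.97 ± 0.03 (SD, n = 4) lay at the control mean of 9.97 ± 0.26 (SD, n = 4), with a difference of -0.00 and a 95% interval of -0.25 to 0.24. The vasectomized-mated mean was 10.08 ± 0.14 (SD, n = 4), with a difference from controls of 0.11 (95% interval -0.14 to 0.36). Intact-mated minus vasectomized-mated females gave -0.11 (95% interval -0.36 to 0.13).

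Msx1, a homeobox factor whose loss from the uterus disturbs receptivity, also overlapped between groups. Its log2 signals were 9.51, 10.09, 9.08 and 9.33 on control arrays, 9.69, 9.57, 9.19 and 9.41 on vasectomized-mated arrays and 9.48, 9.53, 9.65 and 9.76 on intact-mated arrays. Control array 2 was the highest of the 12 and control array 3 the lowest. The differences were 0.10 for intact-mated females against controls (95% interval -0.29 to 0.50), -0.04 for vasectomized-mated females against controls (95% interval -0.43 to 0.36) and 0.14 between the mated groups (95% interval -0.25 to 0.54).

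Gata2 and Foxo1, the factors that act with or beside the progesterone receptor, were not called in any comparison. Gata2 had log2 signals of 11.18, 11.16, 11.13 and 11.21 on control arrays, 11.15, 11.15, 11.09 and 10.99 on vasectomized-mated arrays and 11.16, 11.02, 11.22 and 11.13 on intact-mated arrays. Its 95% intervals ran from -0.17 to 0.10 for intact-mated females against controls, from -0.21 to 0.06 for vasectomized-mated females against controls and from -0.10 to 0.17 between the mated groups. All 3 intervals lie inside a 1.5-fold change. Foxo1 had 10.83, 10.75, 11.05 and 10.88 on control arrays, 11.06, 11.10, 11.14 and 10.89 on vasectomized-mated arrays and 11.13, 10.995, 11.06 and 10.96 on intact-mated arrays. Foxo1 was the gene in which control arrays 1 and 2 lay below control arrays 3 and 4. Its mean was 10.88 ± 0.13 in controls, 11.05 ± 0.11 in vasectomized-mated and 11.04 ± 0.08 in intact-mated females (SD, n = 4 each). The differences from controls were 0.17 (95% interval -0.00 to 0.34, adjusted p = 0.277) and 0.16 (95% interval -0.01 to 0.33, adjusted p = 0.260), and the mated groups differed by -0.01 (95% interval -0.18 to 0.16).

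Acod1 was the gene of the 10 that was higher after mating with intact males. Its log2 signals were 6.76, 8.11, 6.82 and 6.68 on control arrays, 7.22, 6.95, 7.86 and 7.64 on vasectomized-mated arrays and 8.30, 9.21, 8.01 and 8.69 on intact-mated arrays. All intact-mated arrays lay above all vasectomized-mated arrays, and above 3 of the 4 control arrays. Control array 2 stood apart from the other controls and lay just above intact-mated array 3. The means were 7.09 ± 0.68 in controls, 7.42 ± 0.41 in vasectomized-mated and 8.55 ± 0.52 in intact-mated females (SD, n = 4 each). Intact-mated females exceeded controls by 1.46 (SE 0.33, 95% interval 0.73 to 2.19, adjusted p = 0.0154), or 2.76-fold.

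Acod1 differed by 1.14 between intact-mated and vasectomized-mated females, or 2.20-fold, which was not called (SE 0.33, 95% interval 0.41 to 1.86, adjusted p = 0.101). It was the 1 gene of the 10 whose mated groups did not overlap, in the higher direction, against 8.75% of single-symbol clusters. Vasectomized-mated females differed from controls by 0.33 (95% interval -0.40 to 1.06, adjusted p = 0.659). Without control array 2 the difference between intact-mated females and controls was 1.80 (adjusted p = 0.00139), and that between the mated groups was called at 1.14 (SE 0.25, adjusted p = 0.0338). With control arrays 1 and 2 only the difference between intact-mated females and controls was 1.12 and not called (adjusted p = 0.112).

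A list of 10 neutrophil markers was also highest on the intact-mated arrays. Its mean log2 signal was 5.86, 5.84, 5.79 and 5.74 on control arrays, 5.87, 5.95, 5.83 and 6.08 on vasectomized-mated arrays and 6.33, 6.97, 6.50 and 6.85 on intact-mated arrays. Arrays 2 and 4 of the intact-mated group were the highest for both Acod1 and the neutrophil list. Intact-mated arrays 1 and 3 ranked in opposite order, at 8.30 and 8.01 for Acod1 and 6.33 and 6.50 for the list. Vasectomized-mated array 3 was the highest of its group for Acod1, at 7.86, and the lowest for the list, at 5.83. On control array 2, where Acod1 was at 8.11, the neutrophil list was at 5.84, within the range of the other controls. Of the 10 markers 6 were higher in intact-mated females, both against controls and against vasectomized-mated females, and 0 were called between vasectomized-mated females and controls (limma, 0 also at an unadjusted p under 0.05). The means of all 10 markers lay below the median cluster. The mean of 9 macrophage markers was 8.13 to 8.99 in controls, 8.46 to 9.04 in vasectomized-mated and 8.37 to 8.91 in intact-mated females, with 1 marker, Cd14, higher in both mated groups. The part of neutrophils or macrophages in the Acod1 signal was not tested.

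**Figure D2:**
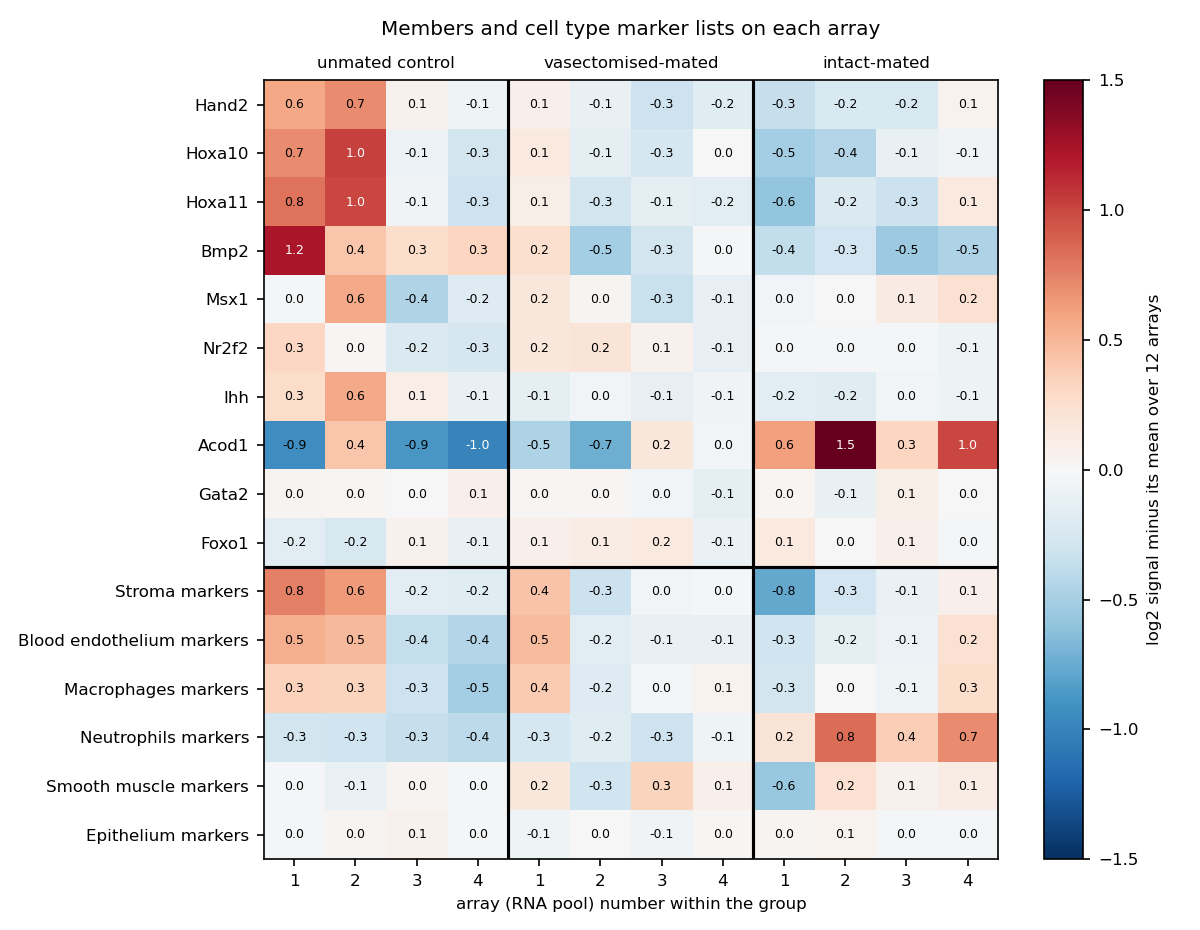
Log2 signal of each gene (upper rows) and mean log2 signal of each marker list (lower rows) on the 12 arrays, each minus its own mean over the 12 arrays, with red above and blue below. Ihh, Bmp2, Hand2, Hoxa10, Hoxa11 and the stromal list are high on control arrays 1 and 2. Acod1 and the neutrophil list are high on intact-mated arrays 2 and 4. Vasectomized-mated array 3 is the highest of its group for Acod1 and the lowest for the neutrophil list.

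The labelled tissue was checked against its markers. The mean of 8 epithelial markers was 12.04 ± 0.05 in controls, 12.01 ± 0.04 in vasectomized-mated and 12.04 ± 0.05 in intact-mated females (SD, n = 4 each), with 0 of 8 called in each comparison (1, 1 and 3 at an unadjusted p under 0.05 for intact-mated against control, vasectomized-mated against control and intact-mated against vasectomized-mated). In each comparison with controls that 1 epithelial marker also had an adjusted p no higher than 0.05 (limma) and missed only the fold threshold. Mean signals lay above that of the median cluster for all 8 epithelial, all 8 stromal and 7 of 8 smooth muscle markers. Smooth muscle markers averaged 9.28 to 9.42, 9.08 to 9.71 and 8.81 to 9.60 in the 3 groups in that order, and blood endothelial markers 7.38 to 8.36, 7.65 to 8.29 and 7.52 to 8.05. With limma 0 of 8 smooth muscle markers were called in any comparison (1, 0 and 1 at an unadjusted p under 0.05, in the same order of comparisons). Of the 8 blood endothelial markers 1 was called, Flt1, a receptor of vascular endothelial growth factor named here after its values were seen, which rose by 1.07 in intact-mated females against controls (adjusted p = 2.09e-05), while the other 7 had log2 fold-changes below 0 and were not called. In the other 2 comparisons 0 endothelial markers were called (1 and 1 at an unadjusted p under 0.05). The 1 marker in each also had an adjusted p no higher than 0.05 (limma) and missed only the fold threshold.

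The group means ran in the order intact-mated, vasectomized-mated, control from lowest to highest in 5 of the 10 genes, namely Ihh, Hand2, Hoxa10, Hoxa11 and Bmp2. In these 5 genes neither the step from intact-mated to vasectomized-mated nor that from vasectomized-mated to control was called. With control arrays 3 and 4 only, vasectomized-mated females lay above controls by 0.11 in Hoxa10 and 0.06 in Hoxa11. The order was then lost in Hoxa10 and Hoxa11 and kept in Ihh, Hand2 and Bmp2. The share of all clusters with this order was not computed. The other 5 genes each had a different order. The plot of differences shows all 30 pairs of gene and comparison, of which 2 were called.

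**Figure D3:**
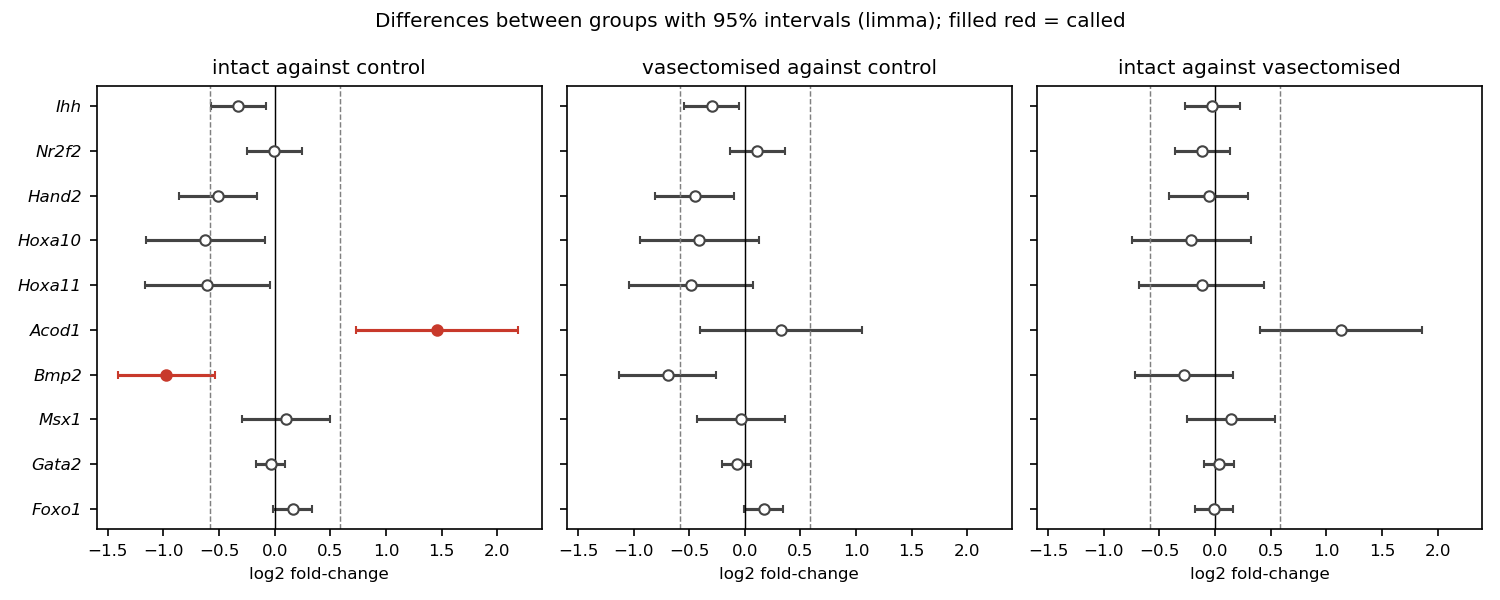
Log2 fold-change (horizontal axis) of each of the 10 genes in the 3 comparisons, with 95% intervals from limma over 12 arrays. Dashed lines mark a 1.5-fold change. Filled red points are called, which are Acod1 at 1.46 and Bmp2 at -0.97 in intact-mated females against controls. Open points are not called.

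The genes most like the 2 called genes across the 12 arrays were sought among 19937 other genes, by the root mean square difference between log2 profiles centred on their own means. For Acod1, whose own SD over the arrays was 0.82, these were Them5 at 0.325, Gm266 at 0.342 and Calb1, which encodes calbindin-D28K, at 0.356. Their log2 fold-changes between intact-mated females and controls were 1.09, 1.39 and 1.00. For Bmp2, whose own SD was 0.52, they were Tgfbr3 at 0.176, Plscr4 at 0.178 and Adcy5 at 0.185. Tgfbr3 encodes betaglycan, a coreceptor of the TGF-β family, and Adcy5 an adenylyl cyclase. Their log2 fold-changes between intact-mated females and controls were -0.81, -0.93 and -0.96. These likenesses are descriptions of 12 arrays that include the group differences.

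Around these 10 genes 8 lists of partners, targets and related genes were examined, with 135 genes analysed here. Of the 135, 10 were higher and 10 lower in intact-mated females than in controls (14.8%), 3 were higher and 4 lower in vasectomized-mated females than in controls (5.19%), and 4 were lower in intact-mated than in vasectomized-mated females (2.96%). With control arrays 1 and 2 only, 8 were higher and 17 lower in intact-mated females and 3 higher and 9 lower in vasectomized-mated females. With control arrays 3 and 4 only, these counts were 12 and 9, and 6 and 6. The lists were chosen with results of these data known, so these shares are descriptions beside the 4.79%, 1.79% and 0.858% of single-symbol clusters.

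Progesterone receptor itself, Pgr, was lower in both mated groups. Pgr averaged 10.22 in controls, 8.88 in vasectomized-mated and 8.23 in intact-mated females, with log2 fold-changes of -1.99 for intact-mated females (adjusted p = 3.38e-05) and -1.34 for vasectomized-mated females (adjusted p = 0.00229). Of 20 measured genes among the receptor, its cochaperones, coregulators and uterine targets, 1 was higher and 2 were lower in intact-mated females, with a median of -0.04, and 1 was lower in vasectomized-mated females. Zbtb16, a zinc finger factor induced by progesterone, fell by 1.20 on the log2 scale in intact-mated females (adjusted p = 0.00862). Hdc, which makes histamine, rose by 1.48 (adjusted p = 0.0275), a call that was lost when any of 6 arrays was left out, control 1, 3 or 4 or intact-mated 1, 2 or 4 (adjusted p up to 0.0759). Without control array 2 Hdc was also called in the other 2 comparisons, and Zbtb16 in vasectomized-mated females.

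In the hedgehog pathway, to which Ihh belongs, 0 of 12 measured genes were called in any comparison with limma (3, 1 and 0 at an unadjusted p under 0.05 for intact-mated against control, vasectomized-mated against control and intact-mated against vasectomized-mated). The largest difference was that of Gli3, a transcription factor of the pathway, at -0.59 between intact-mated females and controls (adjusted p = 0.0654). Gli3 was called there without control array 3 or without control array 4.

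In fibroblast growth factor signalling, 2 of 15 measured genes were higher and 1 was lower in intact-mated females than in controls, with a median of -0.07. Dusp6, which encodes a phosphatase that ERK signalling induces, rose by 0.75 in intact-mated females (adjusted p = 0.000438) and by 0.80 in vasectomized-mated females (adjusted p = 0.00132). Fgf18 rose by 0.63 in intact-mated females (adjusted p = 0.00549). Its call was lost without control array 3 by the fold threshold only (adjusted p up to 0.0200 with any array left out). Fgf1 fell by 0.77 (adjusted p = 0.00604), a call that was lost with control arrays 1 and 2 only. With control arrays 3 and 4 only Fgf1 was also called lower in vasectomized-mated females. Of 18 measured homeobox genes other than those above, 0 were called in any comparison with limma (2, 1 and 1 at an unadjusted p under 0.05 in the same order of comparisons). Hoxa9, which neighbours Hoxa10, had the largest difference, -0.55 (adjusted p = 0.233), and was called without control array 4.

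Around Bmp2, 1 of 23 measured genes of BMP signalling was higher in intact-mated females than in controls, and 1 was lower in vasectomized-mated females than in controls. Between the mated groups 0 were called (3 at an unadjusted p under 0.05, and 1 at an adjusted p no higher than 0.05, limma). Wnt4, a Wnt ligand that acts downstream of Bmp2 in decidualization, rose by 0.70 in intact-mated females (adjusted p = 0.00116), opposite in direction to Bmp2. Wnt4 had 2 array rows, and this value is from the row with the higher mean. Bmp8a fell by 0.64 in vasectomized-mated females (adjusted p = 0.0148). Its call was lost without vasectomized-mated array 3 by the fold threshold only (adjusted p up to 0.0482 with any array left out). In intact-mated females Bmp8a differed by -0.46, below the fold threshold (adjusted p = 0.0375).

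Foxo1 itself was not called. Of 19 measured FOXO paralogs and targets, 4 were lower in intact-mated females than in controls, beside 2.08% of single-symbol clusters. In vasectomized-mated females 0 were called (5 at an unadjusted p under 0.05, limma), beside 1.79% called in either direction. Between the mated groups 2 were lower, beside 0.858% called in either direction. This list too was chosen with results of these data known. Pdk4, which encodes a kinase that turns off pyruvate dehydrogenase, fell by 1.17 in intact-mated females (adjusted p = 0.000428), and was 2.01-fold lower in intact-mated than in vasectomized-mated females (adjusted p = 0.0100). Trp53inp1 fell by 0.96 (adjusted p = 0.00126). Txnip, which encodes a thioredoxin-binding protein that restrains glucose uptake, fell by 0.65 against controls (adjusted p = 0.0130) and by 0.82 against vasectomized-mated females (adjusted p = 0.0167). Of these Txnip calls the former was lost without control array 1 or intact-mated array 1, by the fold threshold only (adjusted p up to 0.0409). The latter was lost without intact-mated array 4, vasectomized-mated array 3 or vasectomized-mated array 4 (adjusted p up to 0.0511). Irs1, an adaptor of insulin signalling, fell by 0.85 (adjusted p = 0.0275), a call lost without control array 1 or 2 or intact-mated array 2, 3 or 4 (adjusted p up to 0.0836). Without control array 3 Irs1, and without control array 2 Trp53inp1, was also called lower in vasectomized-mated females.

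Beside Gata2 and Nr2f2, 1 of 11 measured paralogs and partners was called. Gata3, a GATA factor related to Gata2, rose by 0.91 in intact-mated females (adjusted p = 1.38e-05). Gata3 differed by 0.48 in vasectomized-mated females (adjusted p = 0.00424) and by 0.43 between the mated groups (adjusted p = 0.0156), both below the fold threshold.

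Of 17 other measured implantation and decidualization genes, 5 were higher and 3 lower in intact-mated females than in controls, with a median of 0.23, and 2 were higher and 2 lower in vasectomized-mated females. Ptgs2, the inducible cyclooxygenase of prostaglandin synthesis, rose by 2.69 in intact-mated females (adjusted p = 0.000448) and by 1.78 in vasectomized-mated females (adjusted p = 0.0157). The latter call was lost without vasectomized-mated array 4 (adjusted p = 0.0510). Lif, the cytokine that opens the window of implantation, rose by 1.14 in intact-mated females (adjusted p = 0.000818), with a difference of 0.68 between the mated groups that was not called (adjusted p = 0.0532) and was called without control array 1, 2 or 3. Greb1, a gene induced by estrogen, fell by 2.52 in intact-mated females (adjusted p = 4.65e-06) and by 1.77 in vasectomized-mated females (adjusted p = 0.000351). Wnt5a fell by 1.06 and 0.81 in these groups (adjusted p = 0.000246 and 0.00479). Between the mated groups 2 genes were lower in intact-mated females, Greb1 by 0.75 (adjusted p = 0.0428) and Lifr, the receptor of Lif, by 0.82 (adjusted p = 0.0343). Lifr was named after its values were seen, and its call was lost without intact-mated array 2, 3 or 4 or vasectomized-mated array 1 or 4. The Greb1 call was lost when any of 7 arrays was left out, each intact-mated array or vasectomized-mated array 1, 3 or 4 (adjusted p up to 0.115).

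Calls of other partner genes named above also changed with the control arrays used. The calls of Hdc and Fgf18 in intact-mated females and of Bmp8a in vasectomized-mated females were lost with control arrays 1 and 2 only. With the same arrays Gli3 and Hoxa9 were called lower in both mated groups, Irs1 was called lower and Lif higher in vasectomized-mated females, and Lif and Ptgs2 were called higher in intact-mated than in vasectomized-mated females. With control arrays 3 and 4 only, the calls of Irs1 and Txnip in intact-mated females against controls were lost. With those arrays Hdc was called higher and Trp53inp1 lower in vasectomized-mated females, and Hdc and Lif were called higher in intact-mated than in vasectomized-mated females.

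**Figure D4:**
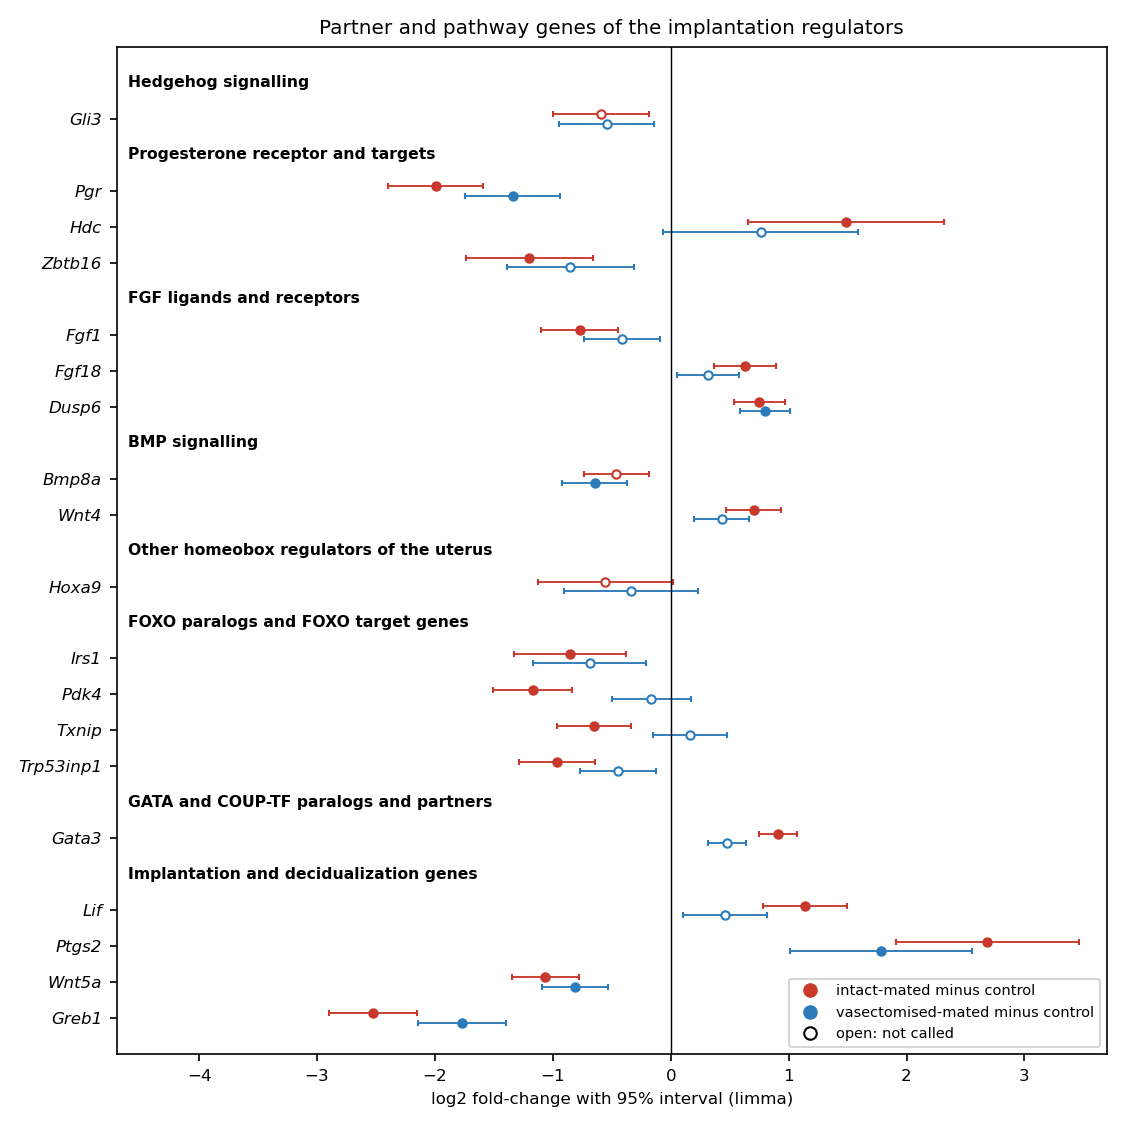
Log2 fold-change from unmated controls (horizontal axis) with 95% intervals for partner and pathway genes of the 10 regulators, in intact-mated (red) and vasectomized-mated females (blue). Filled points are called and open points are not. Pgr, Wnt5a and Greb1 are called lower, and Dusp6 and Ptgs2 higher, in both mated groups.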

How the data were processed

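Endometrial RNA was measured on 12 arrays, 4 per group, and groups and replicate numbers follow the labels. The authors processed the arrays in Partek (RMA background correction, adjustment for probe GC content, probes averaged) and deposited log2 values (versions not given in the sources used here). Per-array columns left out numbered 0. Clusters were joined to symbols through the array annotation: 21789 had 1 symbol, 1621 several and 12146 none. No coordinates of array probes were used. Where a partner gene had more than 1 row, as Wnt4 and Irs1 did, the row with the highest mean was used and other rows are not reported.

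Each of 35556 clusters was given 1 mean per group, from the 12 arrays together, using limma 3.58.1 (R 4.3.3) without trend (prior degrees of freedom 3.26, residual 9), after the code was tested on simulated data. The number of arrays limits the precision. Array medians were 7.25 to 7.32. The genes, lists, tests and alternatives were chosen with earlier results of these data known. Named genes were the 10 regulators, up to 4 called genes of each list with the largest changes (where none was called, the 1 with the largest change) and the 3 genes most like each called regulator. Alternatives were quantile normalization, median centring, other moderation, array weights, a replicate block, 2 groups only, no dim clusters, correction over other sets of clusters, other fold thresholds, control arrays 1 and 2 or 3 and 4 only, and each array left out in turn. The marker lists for lymphatic endothelium, T and NK cells, and oviduct and ovary, with 5, 8 and 7 genes measured, had 0 genes called in intact-mated females against controls (3, 1 and 1 at an unadjusted p under 0.05, limma). Some listed genes are not reported here.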

Additional observations from a re-analysis of the deposited data

Results flagged for a closer look

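In 2 of 30 sets of 4 arrays (10 genes in 3 groups), 1 array lay far from the other arrays of its group, by Dixon's ratio of the gap to the nearest array over the range of the group, at its 95% critical value. Chance flags about 1 in 20 such sets. Acod1 in controls had a ratio of 0.903, with control array 2 at a log2 signal of 8.11 and the other control arrays at 6.68 to 6.82. Bmp2 in controls had a ratio of 0.843, with control array 1 at 7.67 and the other control arrays at 6.72 to 6.87. Without the array concerned, Acod1 was 1.80 higher in intact-mated females than in controls on the log2 scale (adjusted p = 0.00139), and Bmp2 differed by -0.75 (adjusted p = 0.00798).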

How the results depend on the processing

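The 10 regulators included 1 higher and 1 lower gene in intact-mated females against controls, and 0 called in the other comparisons. With control arrays 1 and 2 only, 0 were higher and 4 lower in intact-mated females and 4 were lower in vasectomized-mated females. With control arrays 3 and 4 only, and with array weights, 1 gene, Acod1, was higher in intact-mated than in vasectomized-mated females, at 1.14 and 1.15 (adjusted p = 0.0397 and 0.0414). Of the 10, 0 were lower in intact-mated females against controls without dim clusters, which drops the row of Bmp2, and 0 at a fold-change of at least 2. Leaving out each array in turn gave 1 to 4 lower genes in that comparison (4 without control array 4) and 0 to 1 higher genes between the mated groups (1 without control array 2, Acod1). The difference of Acod1 between intact-mated females and controls was called in 25 of 26 alternatives (log2 fold-change 1.12 to 1.80, adjusted p 0.00139 to 0.112), and that of Bmp2 in 24 of 25 (-1.24 to -0.71, adjusted p 0.00547 to 0.0318). No called difference of the 10 genes reversed. Over 777 recomputed differences of these genes, 13 were newly called and 2 lost their call. After the group mean of each cluster was subtracted, arrays of the same number correlated above 0.1 in 2 of 12 pairs (range -0.26 to 0.20). The numbers were therefore not taken as pairs. With the replicate block 1 gene was higher and 1 lower in intact-mated females against controls, the counts of the fit without it. In the other comparisons 0 were called with it. The alternative of another row per gene was not run for the 10 regulators, each of which had 1 row, nor for partner genes with more than 1 row. The SD of the control arrays was 0.38 for Hand2, 0.62 for Hoxa10 and 0.64 for Hoxa11, and the number of arrays, 4 a group, limits the precision.

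Of the 135 genes of the partner lists, the counts higher and lower in intact-mated females against controls (10 and 10) became 3 and 6 when 2-fold was required, 19 and 17 with no fold threshold, and 17 lower with control arrays 1 and 2 only. Those in vasectomized-mated females against controls (3 and 4) became 1 and 2 when 2-fold was required and 12 and 7 with no fold threshold. There, 1 was higher without variance moderation and with 2 groups only, 6 with control arrays 3 and 4 only, and 9 were lower with control arrays 1 and 2 only. Between the mated groups the 0 higher genes became 1 with trend and robust moderation, array weights, no dim clusters or correction over single-symbol clusters or over 1 cluster per gene, 3 with 2 groups only, 4 with no fold threshold and 2 with either pair of control arrays. The 4 lower genes became 2 without moderation, 1 with the replicate block and 1 when 2-fold was required. Leaving out each array gave 9 to 10 higher and 8 to 12 lower genes, then 1 to 5 and 3 to 6, and between the mated groups 0 to 2 and 1 to 4, in that order of comparisons. The arrays that moved a count by over 1.5 times were control array 2 (5 higher in vasectomized-mated females) and vasectomized-mated array 4 (1 higher), and between the mated groups control arrays 1, 2 and 3 (1, 2 and 1 higher) and intact-mated arrays 2, 3 and 4 and vasectomized-mated arrays 1, 3 and 4 (2, 2, 1, 2, 2 and 1 lower).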
